A study of Mus musculus with 16 samples.

Results

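The genes described here are 9 genes of the fetal and regenerative program of the intestinal epithelium, namely Ly6a, Msln, Clu, Anxa1, Anxa3, Anxa8, S100a6, Il1rn and Il33. They were chosen by gene name from the 54532 genes of the count table, and each name matched 1 protein-coding gene. Transcripts had been counted by bulk RNA-sequencing in 16 cultures of differentiated jejunal enteroids, 4 per group. The cultures of a group came from separate mice, and whether treated and vehicle cultures shared mice is not stated. Enteroids are epithelial organoids grown from intestinal crypts. All groups came from adult animals. MYO5BΔIEC enteroids (Vil-CreERT2;Myo5b-flox/flox) carried a Cre transgene and floxed Myo5b alleles, a genotype in which 4-OH-tamoxifen (1 µM over 24 h) turns on a Cre that is driven by the villin promoter and deletes Myo5b in epithelial cells. MYO5B(G519R) enteroids (Vil-CreERT2;Myo5b-flox/G519R) carried the same Cre with 1 floxed allele and 1 allele with the point mutation, and were induced in the same way. Compound-1-treated MYO5BΔIEC enteroids received 100 nM of Compound-1, a synthetic agonist of the lysophosphatidic acid receptor LPAR5, for 2 days of differentiation, whereas MYO5BΔIEC enteroids received PBS. Both models are induced in culture and show the epithelium without stroma or immune cells. The controls were labelled as untreated. The sources describe them as uninduced Cre-carrying floxed enteroids given ethanol in one place and as healthy littermates in another, so the effect of genotype and that of 4-OH-tamoxifen cannot be told apart in any comparison with control.

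After damage, the intestinal epithelium shifts for a time from its adult homeostatic program to one that resembles the fetal gut. This state is known for the surface protein encoded by Ly6a (Sca-1), for Clu, a marker of the rare revival stem cells that appear after irradiation, and for annexins, and it is linked to YAP and TEAD activity and to loss of crypt stem cell genes such as Lgr5 and Olfm4. Il1rn and Il33 are epithelial members of the interleukin-1 family that damp or raise inflammatory signaling.

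Promoter sequences from RefSeq (GRCm38.p6) were at hand for 5 of the 9 genes, Anxa1, Anxa8, Il1rn, Il33 and S100a6, with 8 annotated start windows in all. These 5 were chosen only because they had an entry, as all 9 genes had higher levels in treated than in control cultures. Binding motifs of TEAD and AP-1 factors were looked for because they are the ones usually linked to this program. The window of S100a6 runs into an annotated exon, and its letters are not printed. Letters are read 5′ to 3′ on the strand of the gene, and capitals mark matches on either strand to the TEAD motif GGAATG or the AP-1 motif TGANTCA. The 250 bases before the 2 start sites of Il33 on the plus strand, at chr19:29924863-29925112 and chr19:29945540-29945789, and those before the start site of Anxa8 on the plus strand, at chr14:34085729-34085978, overlap no annotated exon:
Il33, first start: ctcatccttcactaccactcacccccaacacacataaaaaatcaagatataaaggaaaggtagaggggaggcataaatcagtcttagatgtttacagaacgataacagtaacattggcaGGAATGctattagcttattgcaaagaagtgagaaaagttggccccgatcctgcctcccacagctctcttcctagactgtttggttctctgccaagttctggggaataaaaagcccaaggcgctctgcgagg
Il33, second start: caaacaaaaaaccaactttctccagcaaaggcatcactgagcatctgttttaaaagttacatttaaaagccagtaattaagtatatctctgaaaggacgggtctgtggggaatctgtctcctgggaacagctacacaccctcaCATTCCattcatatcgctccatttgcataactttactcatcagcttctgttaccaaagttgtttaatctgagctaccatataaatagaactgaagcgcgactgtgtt
Anxa8: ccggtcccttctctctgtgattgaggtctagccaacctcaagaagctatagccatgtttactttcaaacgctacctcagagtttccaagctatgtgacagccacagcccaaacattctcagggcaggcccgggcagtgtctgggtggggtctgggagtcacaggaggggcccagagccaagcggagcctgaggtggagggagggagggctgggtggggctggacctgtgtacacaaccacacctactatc

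The windows of Anxa1 and Il1rn run into annotated exons, and only the matches with 10 bases on each side are given, Anxa1 at chr19:20390892-20390917 on the minus strand and Il1rn at chr2:24336709-24336735 and chr2:24345337-24345362 on the plus strand:
Anxa1, TEAD: tgcactgaacCATTCCtgtgaggaat
Il1rn, AP-1: tctgctagacTGAGTCAcgcctctgga
Il1rn, TEAD: acagtggaacGGAATGacagcagcac
In all, 4 of the 8 windows held the TEAD motif and 1 held the AP-1 motif, against 12.6% and 6.75% of the 32851 windows of the same length in the table. The 8 are not separate units, since 3 belong to Il1rn, some of them overlapping, and 2 to Il33, both with the TEAD motif. With so few genes, these counts cannot show an enrichment. The windows of Anxa8 and S100a6 held neither set of letters. A match of this length is a description of the letters only.

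Library totals were 27804968 to 40101729 counts, and levels are given as CPM (counts scaled to a common library total) on TMM-normalized library sizes. Groups were compared with edgeR's quasi-likelihood test, and a gene was taken to differ at a Benjamini-Hochberg adjusted p under 0.05 over all genes tested. Myo5b, the targeted gene, ranged from 160 to 229.7 CPM among controls, 101 to 169.6 CPM among MYO5BΔIEC cultures, 136 to 173 CPM among the point mutants and 87.2 to 149 CPM among treated cultures, with log2 fold changes against control of -0.55, -0.33 and -0.77 (edgeR adjusted p = 0.0503, 0.109 and 0.0146). Whole-gene counts cannot tell intact transcripts from those that lack the floxed sequence or carry the mutation, and the extent of deletion was not tested. Pan-epithelial markers were high in all 16 libraries, while 7 of 8 fibroblast, 4 of 5 endothelial, 5 of 7 immune, 4 of 5 mesothelial and 3 of 4 stratified epithelial markers stayed under 1 CPM in every library. The mesothelial genes Wt1 and Muc16 were at 0 and at 0 to 0.0997 CPM, and the mesothelial marker above this level was Upk3b, at 2.65 to 23.8 CPM. Control culture 1 stood apart from the other controls. Its summed mature enterocyte markers were at 3187 CPM, against 12754 to 15934 CPM in the other 3, and its Fabp1, the enterocyte fatty acid binding protein, was at 245 CPM against 3677 to 4449 CPM. Summed crypt stem cell markers were at 4123 to 7550 CPM in control and at 1376 to 3751 CPM in the other 12 cultures. On average Olfm4 made up most of the control sum (mean 3744 CPM). In MYO5BΔIEC it averaged 777 CPM, below Slc12a2 of the same list. Slc12a2 averaged 1109 CPM in control and 1032 CPM in MYO5BΔIEC. Mature enterocyte sums had medians of 12767 CPM for controls, 9232 CPM with the deletion, 6699 CPM with the point mutation and 5422 CPM with Compound-1. Pan-epithelial sums had medians of 5630.1, 8465, 7969.7 and 10472 CPM in the same order. Krt8 made up much of the latter, with means of 2437, 3804, 3557 and 5257 CPM. With the deletion 5 of the 9 mature enterocyte markers had positive log2 fold changes against control (median 0.55), as did 49.4% of all genes. With the point mutation 4 of the 9 did (46.7% of all genes). Fabp1 averaged 3086 CPM in control and 1044 CPM with the deletion, and Apoa1 1890 and 1860 CPM. The basal keratin Krt5, a marker of stratified epithelium, was at 0 in all controls, at 0.15 to 2.58 CPM with the deletion, at 0.0592 to 1.8 CPM with the point mutation and at 0.302 to 5.2 CPM with Compound-1, and passed against control in each (edgeR adjusted p = 0.00667, 0.0197 and 0.0083). The medians of these sums differed between the groups, but differences of the sums were not tested. Mature enterocyte sums were at 5828 to 11948 CPM with the deletion, 5182 to 8226 CPM with the point mutation and 5053 to 7301 CPM with Compound-1. The control range of 3187 to 15934 CPM held all of these, though only through control culture 1. The part of the sums and of Krt5 in the results below was not tested. In bulk RNA, fewer cells of a type and less RNA per cell cannot be told apart.

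In control enteroids, the genes spanned a wide range of levels per length. S100a6 was the highest, at 72.1 ± 34.8 FPKM (SD, n = 4), followed by Ly6a at 33.7 ± 42.9, Msln at 22.05 ± 11.6 and Anxa3 at 21.6 ± 17.3 FPKM, and the ranges of these neighbors overlapped. Clu, at 7.67 ± 2.66 FPKM, lay below the range of Anxa3 and overlapped Anxa1 at 6.44 ± 1.41 FPKM. Il1rn at 4.22 ± 1.31 FPKM lay below Anxa1, and Il33 at 1.24 ± 0.461 and Anxa8 at 0.82 ± 0.594 FPKM were the lowest and overlapped each other. In MYO5BΔIEC enteroids the order began with S100a6 at 131 ± 16.8, Ly6a at 94.7 ± 44.8 and Msln at 68.6 ± 27.95 FPKM, and Clu, at 37.1 ± 8.93 FPKM, had reached the level of Anxa3 at 36.3 ± 9.77 FPKM. In treated enteroids S100a6 at 372 ± 239, Msln at 222 ± 159 and Clu at 171 ± 185 FPKM led the order, with overlapping ranges.

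**Figure D1:**
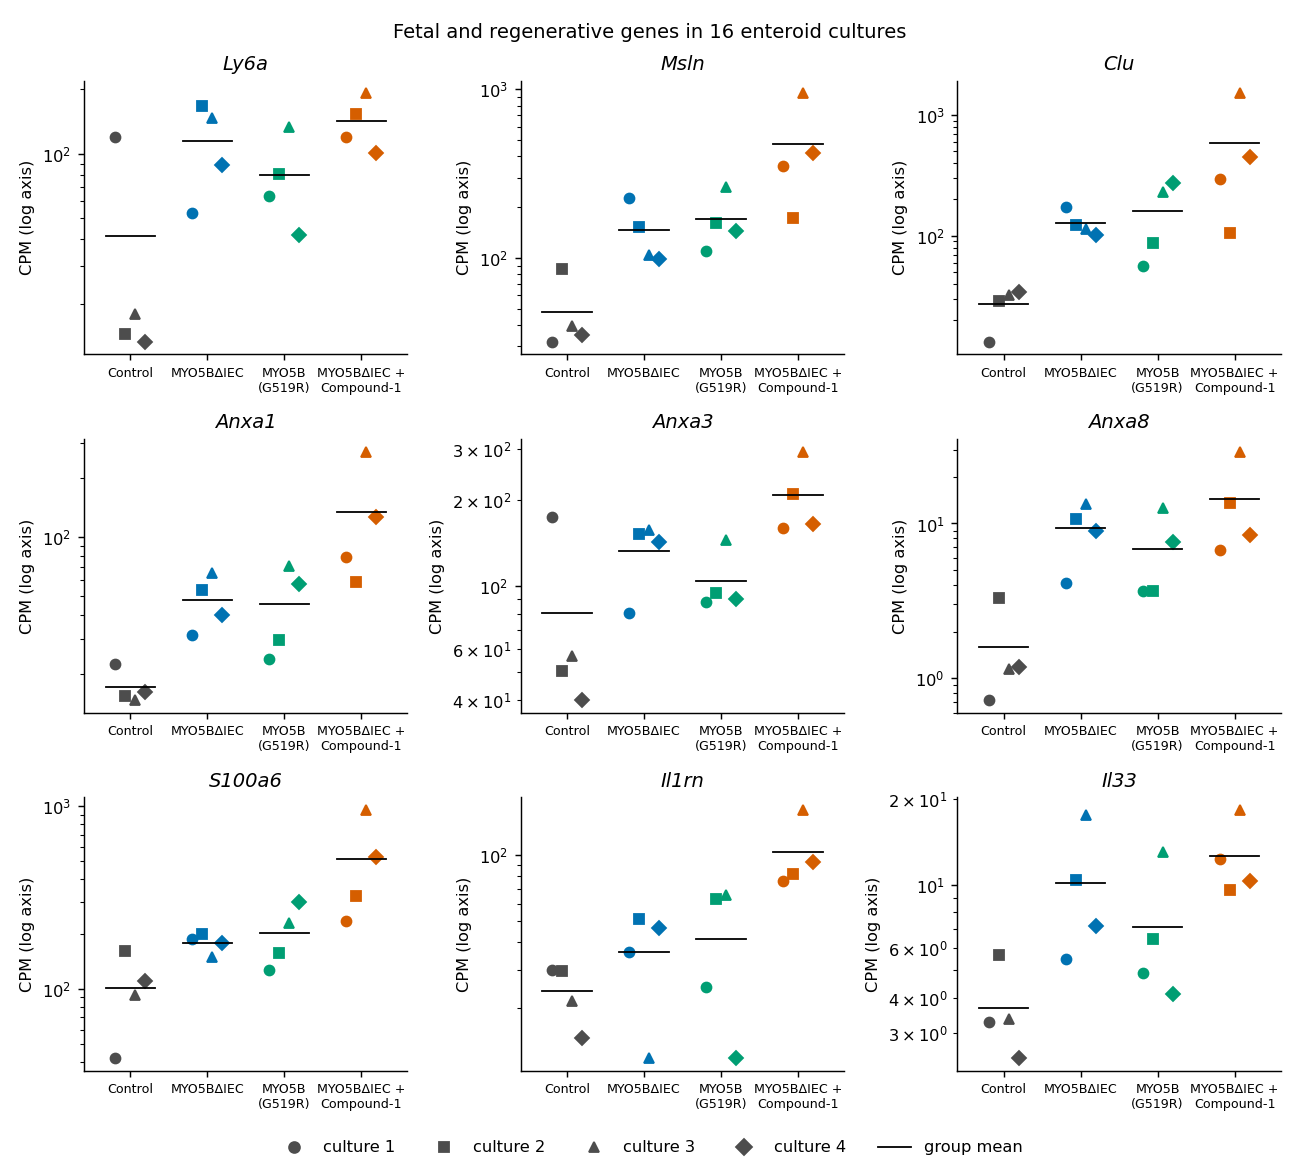
CPM on a log axis for each of the 9 genes in the 4 cultures of each group (control, the deletion with vehicle, the point mutation, and the deletion with Compound-1). Symbols mark the culture number and lines the group mean. Treated culture 3 was the highest of the 16 cultures for all 9 genes. Control culture 1 lay within the range of the 12 MYO5B-deficient cultures for Ly6a and Anxa3, and all 4 controls did for Il1rn.

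The question of the first comparison was how loss of MYO5B in the epithelium changed these genes. In MYO5BΔIEC enteroids 5 of the 9 genes rose, Anxa8, Clu, Msln, Anxa1 and Il33, by 2.75-fold to 5.85-fold, and none fell. Over all 17951 genes tested, 27.4% passed and 13.5% rose at the same threshold. At an unadjusted edgeR p under 0.05, 6 of the 9 were higher, against 19.6% of all genes. The 4 MYO5BΔIEC cultures lay above all controls for 4 of the 9, and for 13% of all genes. All 9 log2 fold changes were above 0, as were those of 49.4% of all genes. Their median was 1.48, against -0.01 over all genes. In MYO5B(G519R) enteroids 4 of the 9 rose, Clu, Anxa8, Msln and Anxa1, by 2.64-fold to 5.96-fold, where 26.8% of 17829 genes passed and 13.1% rose. At an unadjusted edgeR p under 0.05, 6 of the 9 were higher, against 18.8% of all genes, and 4 of the 9 did not overlap control, against 13.6%. All 9 were again above 0 (46.7% of all genes), with a median log2 fold change of 1.00 against -0.05. Both comparisons share the 4 control cultures.

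**Figure D2:**
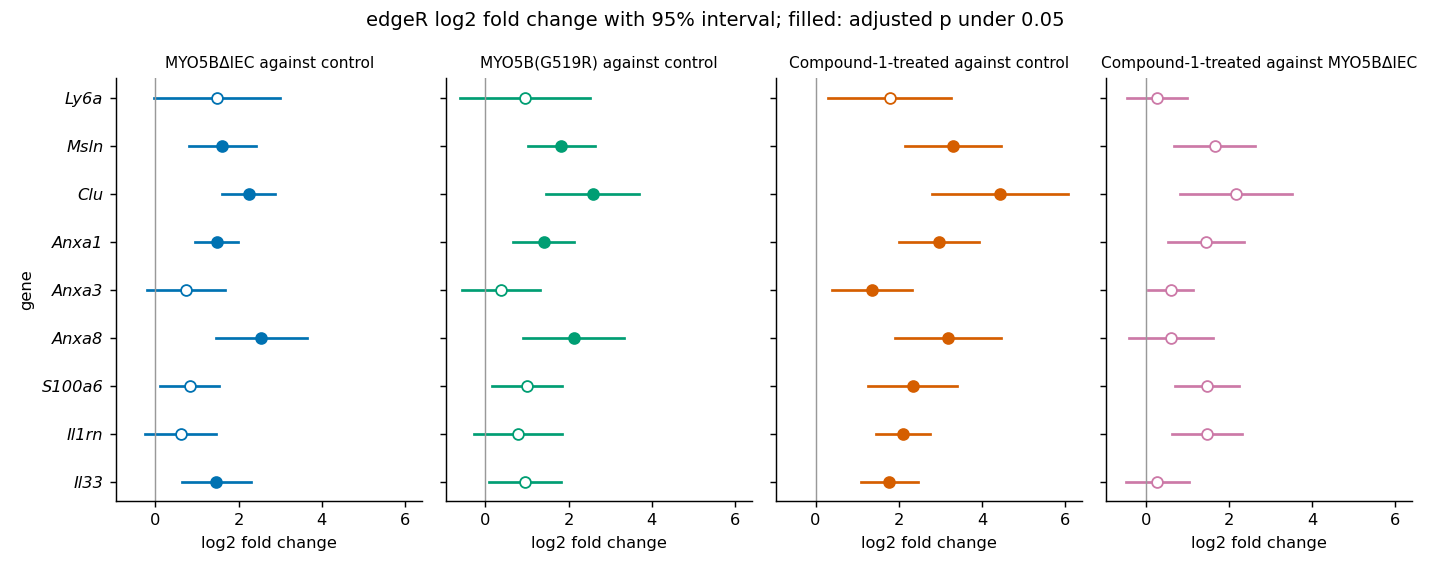
edgeR log2 fold change (x axis) with its 95% interval for the 9 genes (y axis) in 4 comparisons; filled points have an adjusted p under 0.05. Filled points number 5 in MYO5BΔIEC against control, 4 in MYO5B(G519R) against control, 8 in treated against control and 0 in treated against MYO5BΔIEC enteroids.

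Among the surface proteins, Msln encodes mesothelin, a glycoprotein held in the membrane by a lipid anchor. Msln (ENSMUSG00000063011, GRCm38 chr17:25748614-25754327, minus strand) was at 31.7, 85.8, 39.4 and 34.9 CPM in control cultures 1 to 4 and at 226, 153, 105 and 98 CPM in MYO5BΔIEC cultures. It was at 110.0, 161, 263 and 145 CPM in MYO5B(G519R) cultures, so that all 8 lay above every control, although control culture 2 was high among the controls. On the log2 scale Msln rose by 1.61 ± 0.36 (SE) with the deletion and by 1.82 ± 0.36 with the point mutation, at edgeR adjusted p values of 0.00921 and 0.00651.

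Ly6a encodes Sca-1, the lipid-anchored antigen used to sort regenerating epithelium. Ly6a (ENSMUSG00000075602, chr15:74994877-74998031, minus strand) was at 119, 14.4, 17.9 and 13.2 CPM in control, 52.8, 168, 147 and 89 CPM in MYO5BΔIEC and 63.4, 80.2, 134 and 42 CPM in MYO5B(G519R) cultures. Control culture 1 was thus far above the other controls and inside the range of the deficient cultures, whereas all 8 deficient cultures lay above the other 3 controls. The log2 fold changes of 1.48 (SE 0.69) and 0.95 (SE 0.70) did not pass with all cultures (edgeR adjusted p = 0.133 and 0.346). Without control culture 1 they were 2.92 and 2.43 (edgeR adjusted p = 0.00014 and 0.000312). Ly6a lies in a cluster of closely related genes, and how reads with several matching positions were counted is not given in the sources used here.

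Clu encodes clusterin, a secreted chaperone. Clu (ENSMUSG00000022037, chr14:65968483-65981547, plus strand) was at 13.2, 28.6, 32.3 and 34.5 CPM in control and at 172, 124, 115 and 101 CPM in MYO5BΔIEC cultures. In MYO5B(G519R) cultures it was at 56.5, 86.4, 233 and 271 CPM, a wider spread, with cultures 3 and 4 above all MYO5BΔIEC cultures. Neither group overlapped control, and Clu rose by 2.25 ± 0.29 and 2.57 ± 0.50 (log2, SE), at edgeR adjusted p values of 0.00144 and 0.00627.

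The annexins bind phospholipid membranes in the presence of calcium. Anxa1 encodes a mediator of the resolution of inflammation that acts on formyl peptide receptors. Anxa1 (ENSMUSG00000024659, chr19:20373428-20390944, minus strand) was at 22.5, 15.5, 14.7 and 16.3 CPM in control, the tightest control group of the 9 genes, and at 31.7, 53.8, 65.6 and 40.1 CPM in MYO5BΔIEC cultures. In MYO5B(G519R) cultures it was at 23.8, 29.7, 70.9 and 57.3 CPM, with culture 1 just above the highest control. Anxa1 rose by 1.48 ± 0.23 and 1.40 ± 0.33 (log2, SE), at edgeR adjusted p values of 0.0024 and 0.0127.

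Anxa8 (ENSMUSG00000021950, chr14:34085981-34100571, plus strand) was the least abundant of the annexins here, at 0.721, 3.29, 1.15 and 1.19 CPM in control, which rests on 23 to 99 counts per library. It was at 4.1, 10.8, 13.4 and 8.89 CPM in MYO5BΔIEC and at 3.67, 3.67, 12.6 and 7.6 CPM in MYO5B(G519R) cultures, all above every control. Anxa8 rose by 2.55 ± 0.49 and 2.12 ± 0.54 (log2, SE), at edgeR adjusted p values of 0.00484 and 0.0186. In MYO5B(G519R) the call was lost without control culture 3 or 4 or MYO5B(G519R) culture 3 (edgeR adjusted p = 0.0586, 0.0567 and 0.0587), and without control culture 2 the 2 values were 3.19 and 2.75. A gene on the opposite strand that overlaps Anxa8 held at most 2 counts in any library.

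Anxa3 (ENSMUSG00000029484, chr5:96793339-96845966, plus strand) was at 175, 50.5, 56.8 and 39.9 CPM in control, 80.6, 152, 156 and 143 CPM in MYO5BΔIEC and 88, 94.3, 145 and 90 CPM in MYO5B(G519R) cultures. Control culture 1 was above all 8 deficient cultures, while the other 3 controls were below all of them. The log2 fold changes were 0.73 (SE 0.42) and 0.38 (SE 0.43) with all cultures (edgeR adjusted p = 0.225 and 0.555) and 1.44 and 1.12 without control culture 1 (edgeR adjusted p = 0.00049 and 0.000898).

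S100a6 encodes calcyclin, a small calcium-binding protein that binds several annexins. S100a6 (ENSMUSG00000001025, chr3:90612882-90624181, plus strand) was at 41.8, 162, 92.3 and 110.5 CPM in control, 188, 201, 150.4 and 179 CPM in MYO5BΔIEC and 127, 157, 230.5 and 298 CPM in MYO5B(G519R) cultures. Control culture 1 was the lowest of the 16, and control culture 2 reached into both other groups. The log2 fold changes of 0.83 (SE 0.32) and 1.00 (SE 0.38) did not pass (edgeR adjusted p = 0.0772 and 0.0791). Without control culture 1 they were 0.57 and 0.77, and without control culture 2 they were 1.15 and 1.32, and all 4 of these passed (edgeR adjusted p = 0.03, 0.045, 0.0264 and 0.0428). S100a6 did not pass in either model when any other single culture was left out. The edgeR adjusted p values were then 0.0981 to 0.167 with the deletion and 0.0699 to 0.195 with the point mutation.

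Of the interleukin-1 family members, Il33 encodes an alarmin that is stored in the nucleus and released on cell damage. Il33 (ENSMUSG00000024810, chr19:29925114-29960718, plus strand) was at 3.29, 5.65, 3.37 and 2.45 CPM in control, or 66 to 170 counts, and at 5.45, 10.4, 17.6 and 7.18 CPM in MYO5BΔIEC cultures. In MYO5B(G519R) cultures it was at 4.87, 6.45, 13 and 4.13 CPM, and control culture 2 overlapped both groups. It rose in MYO5BΔIEC by 1.46 ± 0.38 (log2, SE) at an edgeR adjusted p of 0.0169, a call that was lost when control culture 3 or 4 was left out (0.0514 and 0.0535 by edgeR, adjusted). The value in MYO5B(G519R), 0.95 (SE 0.39), did not pass (edgeR adjusted p = 0.0978). Il1rl1, which encodes the receptor of this cytokine, was at 0 to 0.125 CPM in all 16 libraries.

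Il1rn encodes the secreted antagonist of the interleukin-1 receptor. Il1rn (ENSMUSG00000026981, chr2:24336853-24351494, plus strand) was at 29.8, 29.7, 21.7 and 14.6 CPM in control, 36.1, 51, 11.8 and 46.3 CPM in MYO5BΔIEC and 25, 63, 65.8 and 11.9 CPM in MYO5B(G519R) cultures. The lowest culture of each deficient group lay below every control, and the groups overlapped. The log2 fold changes of 0.61 (SE 0.39) and 0.79 (SE 0.47) did not pass (edgeR adjusted p = 0.269 and 0.245). Without MYO5BΔIEC culture 3 the first was 0.90 (edgeR adjusted p = 0.0333). Leaving out any other single culture gave 0.40 to 0.73 for it, and none of these passed (edgeR adjusted p = 0.18 to 0.543). No single omission made the second pass (edgeR adjusted p = 0.0551 to 0.54).

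Leaving out control culture 1 raised the count of genes that passed to 8 of 9 in MYO5BΔIEC and 7 of 9 in MYO5B(G519R), all higher, and the share of all genes that rose to 21.2% and 24%. The genes not called then were Il1rn in both models and Il33 in MYO5B(G519R). In control culture 1, Ly6a and Anxa3 were high beside low mature enterocyte markers, and its Areg, F3, Sprr1a and Ly6e, other genes of the program, were also above the other controls (323 against 67.7 to 89.2 CPM for Areg). Krt7, also of the program, ranged only from 239 to 286 CPM among controls. Areg, F3, Sprr1a and Ly6e were picked here after their values were seen, and the program as a whole was not compared in control culture 1. Clu, Anxa8, Msln and S100a6 were lowest among the controls in the same culture. Of its crypt stem cell markers, Lgr5, Ascl2, Smoc2, Rgmb and Slc12a2 were above the other controls. Lgr5 was at 286 CPM against 123 to 162 CPM, and Slc12a2 at 1635 CPM against 800 to 1037 CPM. Olfm4 (1570 against 3749 to 5712 CPM) and Axin2 (80.6 against 116 to 137 CPM), of the same list, were below the other controls. The part of cell composition in these values was not tested.

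**Figure D3:**
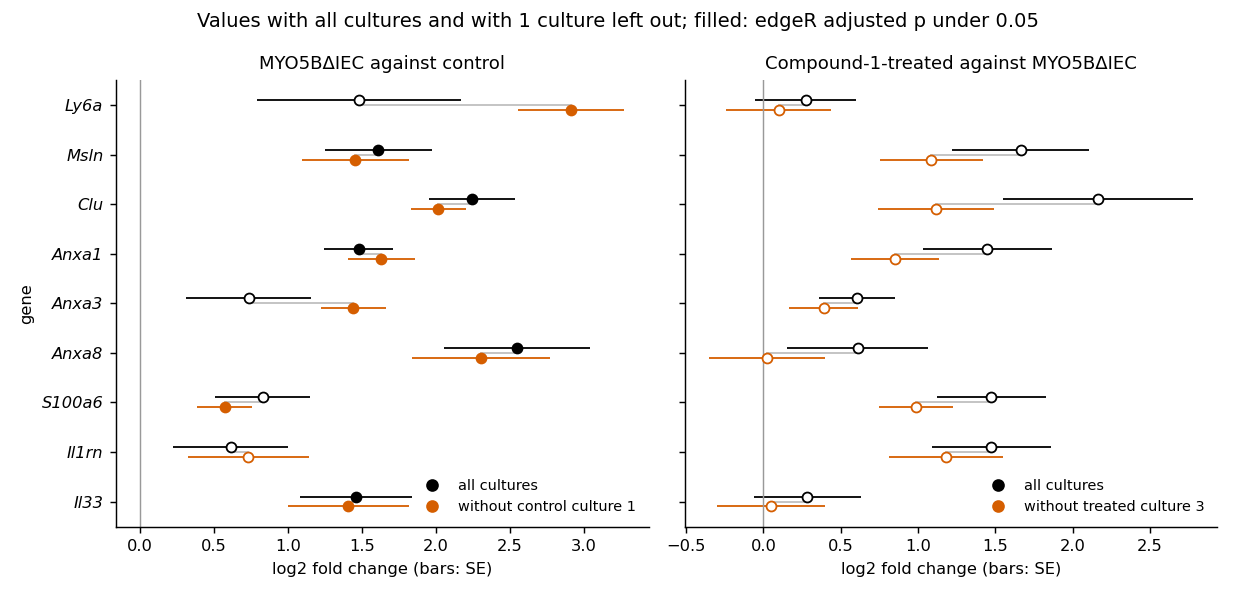
log2 fold change (x axis, bars SE) of the 9 genes (y axis) with all cultures (black) and with 1 culture left out (orange): control culture 1 in MYO5BΔIEC against control and treated culture 3 in treated against MYO5BΔIEC. Filled points have an edgeR adjusted p under 0.05; Ly6a moved from 1.48 to 2.92 in the first comparison and Clu from 2.17 to 1.11 in the second.

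The 2 models were compared directly to ask whether the point mutation and the deletion differed in these genes. None of the 9 passed in MYO5B(G519R) against MYO5BΔIEC enteroids by edgeR or DESeq2 (edgeR adjusted p = 0.838 to 0.965), and 1 of 17943 genes, or 0.00557%, passed by edgeR. None of the 9 was higher at an unadjusted edgeR p under 0.05, against 1.96% of all genes. The log2 differences ran from -0.52 for Ly6a (95% interval -1.37 to 0.33) to 0.33 for Clu (-0.58 to 1.24), with 4 of 9 above 0. The intervals reached beyond 2-fold higher for Clu and Il1rn (upper bound 1.34) and beyond 2-fold lower for Ly6a, Anxa8 (lower bound -1.38) and Il33 (-1.41).

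Compound-1 was added to ask what activation of LPAR5 changes in enteroids that lack MYO5B. In treated against MYO5BΔIEC enteroids none of the 9 genes passed (edgeR adjusted p = 0.532 to 0.945), and of 18037 genes tested edgeR called 0, so that 0% stood beside 1355 genes with an unadjusted p under 0.05. All 9 values were above 0, as were those of 50.7% of all genes, and the median log2 fold change was 1.45 against 0.00 over all genes. Of the 9, 6 had an unadjusted p under 0.05 and were higher, against 3.42% of all genes. These were Clu, Msln, S100a6, Il1rn, Anxa1 and Anxa3. In 3 genes, S100a6, Il1rn and Anxa3, all 4 treated cultures lay above all 4 MYO5BΔIEC cultures, as did 1.59% of all genes.

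The largest difference was that of Clu, at 298, 105, 1510.2 and 449 CPM in treated cultures 1 to 4 against 101 to 172 CPM in MYO5BΔIEC cultures. Treated culture 2 lay within the MYO5BΔIEC range and culture 3 was far above the other 3. The difference was 4.49-fold (95% interval 1.77 to 11.4). Without treated culture 3 the log2 value fell from 2.17 to 1.11.

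The mesothelial marker Upk3b was at 2.65 to 9.55 CPM in treated and at 7.9 to 23.8 CPM in MYO5BΔIEC cultures. Its log2 difference of -1.31 did not pass (edgeR adjusted p = 0.55), and its relation to Msln was not tested. Msln was at 353, 173, 945 and 422 CPM in treated cultures, of which 3 lay above every MYO5BΔIEC culture. Its difference was 3.17-fold (95% interval 1.61 to 6.22), and without treated culture 3 its log2 value fell from 1.66 to 1.09. S100a6 was at 237, 322, 957 and 531 CPM, all above the MYO5BΔIEC maximum of 201 CPM, and 2.78-fold higher (95% interval 1.62 to 4.76). Without treated culture 3 its log2 value fell from 1.47 to 0.98.

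Il1rn was at 76.5, 82.4, 161 and 93.4 CPM in treated cultures, all above the MYO5BΔIEC maximum of 51 CPM, with a difference of 2.78-fold (95% interval 1.55 to 4.99). It was the gene with the smallest loss among the 5 with more than 2-fold differences when treated culture 3 was left out, from a log2 value of 1.47 to 1.18. Anxa1 was at 78.8, 58.8, 271 and 127 CPM and 2.73-fold higher (95% interval 1.45 to 5.14), with log2 values of 1.45 with and 0.85 without treated culture 3.

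Differences of the other 4 genes were smaller. Anxa3 was at 159, 210.1, 294 and 164 CPM in treated cultures, all above the MYO5BΔIEC maximum of 156 CPM but cultures 1 and 4 only just, and its difference was 1.52-fold (95% interval 1.05 to 2.21). Without treated culture 3 its log2 value fell from 0.60 to 0.39, and it was then no longer among the genes with an unadjusted edgeR p under 0.05, of which 5 remained. Anxa8 was at 6.74, 13.7, 29.1 and 8.48 CPM, and its log2 difference of 0.61 was 0.02 without treated culture 3. Ly6a was at 119.7, 154, 191 and 101 CPM and Il33 at 12.3, 9.59, 18.4 and 10.3 CPM, each inside or near the MYO5BΔIEC range, with log2 differences of 0.27 (95% interval -0.44 to 0.99) and 0.28 (-0.47 to 1.04).

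With DESeq2 in place of edgeR, S100a6 and Il1rn passed (DESeq2 adjusted p = 0.018 and 0.0313) among 91 genes, of which 48 or 0.266% of those tested were higher. With treated culture 3 left out, neither of them did (DESeq2 adjusted p = 0.13 and 0.259). Treated culture 3 was the highest of all 16 cultures for each of the 9 genes. Its summed pan-epithelial markers, at 12755 CPM, were also the highest of the 16, and its summed mature enterocyte markers, at 5081 CPM, lay near those of treated cultures 2 and 4 (5764 and 5053 CPM). Of the pan-epithelial list, Krt8 reached 6631 CPM among treated cultures, while Epcam was highest in a control culture, at 1442 CPM. Summed crypt stem cell markers of treated culture 3, at 1376 CPM, were the lowest of the 16, and Krt5 was highest there. The part of these in the values was not tested.

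Treated MYO5BΔIEC against control enteroids gave the widest changes. Here 8 of the 9 genes rose, by 2.57-fold (Anxa3) to 21.8-fold (Clu), where 29.4% of 17937 genes passed and 15.7% rose. At an unadjusted edgeR p under 0.05 all 9 were higher, against 21.1% of all genes. The median log2 fold change was 2.33, against -0.05 over all genes. Clu (log2 4.44), Msln (3.30), Anxa8 (3.19), Anxa1 (2.96), S100a6 (2.33), Il1rn (2.11) and Il33 (1.78) had edgeR adjusted p values of 0.00398 to 0.00791, and the 4 treated cultures lay above all controls for each of these 7, as they did for 14.3% of all genes. Ly6a, at 1.78, did not pass (edgeR adjusted p = 0.0672). It passed without control culture 1 (3.24, edgeR adjusted p = 0.000234), and also with no filter on low counts (edgeR adjusted p = 0.0255) and with all 4 groups in 1 fit (edgeR adjusted p = 0.0282). The call of Anxa3, at 1.36 (edgeR adjusted p = 0.039), was lost when any culture other than control culture 1 was left out (edgeR adjusted p = 0.0515 to 0.112). Without treated culture 3, Clu was at 3.38, Msln at 2.72, Anxa8 at 2.59 and Anxa1 at 2.35 and 7 of the 9 passed, where 10.6% of all genes rose.

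The genes differed in which cultures they followed. Across the 16 cultures, all 36 pairs had a positive Pearson r of log2 CPM, from 0.39 (Ly6a and S100a6) to 0.95 (Ly6a and Anxa3), with a median of 0.74. With the group means subtracted the median was 0.42, and 30 of 36 pairs stayed positive. Ly6a and Anxa3 kept an r of 0.95. Clu, S100a6, Msln and Anxa1 formed pairs with r of 0.51 to 0.80 with each other, whereas Ly6a had r of -0.43 with S100a6 and -0.23 with Clu. These are descriptions over 16 cultures that share libraries and group differences, and treated culture 3 and control culture 1 are among them.

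**Figure D4:**
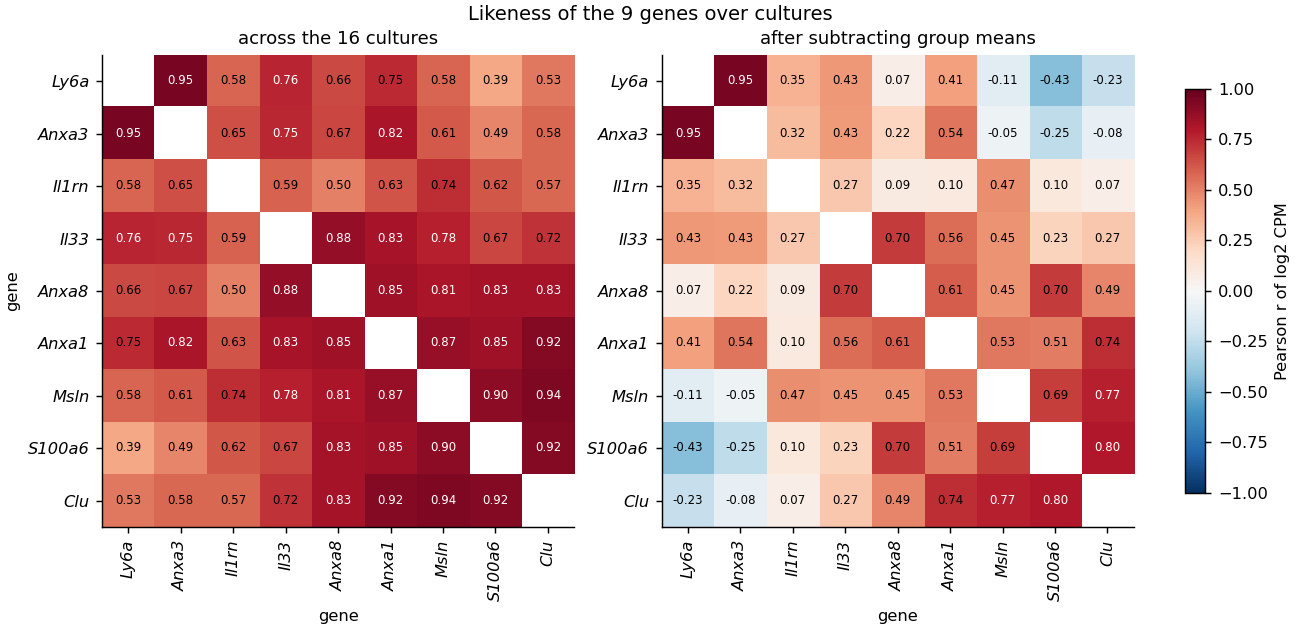
Pearson r of log2 CPM between the 9 genes (both axes), across the 16 cultures (left) and with group means subtracted (right). Ly6a and Anxa3 had an r of 0.95 in both, and Ly6a against S100a6 went from 0.39 to -0.43.

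Among 11756 named genes with a mean of at least 1 CPM, the genes nearest to each by r across the 16 cultures were Rap2a (0.97) and Tsc22d2 (0.96) for Ly6a, and F3 and Areg (both 0.97) for Anxa3, F3 encoding tissue factor and Areg the growth factor amphiregulin. Clu lay nearest to Gpa33, a surface antigen of the intestinal epithelium, and Ankrd1 (both 0.97). Msln lay nearest to Nbl1 and Capg (both 0.98), Anxa1 to Srgap1 (0.98) and Krt23 (0.97), and S100a6 to Batf2 (0.96) and Sh3bgrl3 (0.95). Anxa8 lay nearest to Ces2f (0.97) and Lif (0.95), and Il33 to Cd55 (0.96) and Cast (0.95). Il1rn had no gene as near, with Nek8 at 0.86 and Rsad1 at 0.85.

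A list of 25 other genes of the fetal and regenerative program was measured beside the 9. Like all lists here, it was chosen with earlier results of these data known. Of the 25, 24 had counts enough to be tested and Spp1 had not. In MYO5BΔIEC 18 of the 24 rose and none fell (median log2 value 1.07), where 13.5% of all genes rose. In MYO5B(G519R) 15 of the 24 rose and none fell (median 0.85), where 13.1% of all genes rose. All 15 were among those that rose in MYO5BΔIEC. Among the most abundant of them, the calcium-binding S100a11 averaged 141 ± 28.1 CPM (SD, n = 4) across controls, 262 ± 61.8 CPM with the deletion and 223 ± 48.5 CPM with the point mutation. The keratin Krt7 was at 259.5 ± 20.7, 371 ± 27.8 and 393 ± 71.4 CPM, and Anxa10 was at 57.7 ± 20.9, 132 ± 19.1 and 124 ± 40.8 CPM. Anxa2 had log2 fold changes of 0.77 and 0.61 (edgeR adjusted p = 0.0133 and 0.0218). Gsto1 (log2 -0.14 and -0.21) and S100a10 (0.02 and -0.03), of the same list, did not pass.

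Of these 24 genes none passed with Compound-1 by edgeR, and DESeq2 called 2, Anxa10 and Plaur, as higher (DESeq2 adjusted p = 0.00323 and 0.027). Without treated culture 3, Anxa10 still passed in DESeq2 (adjusted p = 0.00168) and Plaur did not (adjusted p = 0.178). Anxa10 was at 223 to 480.4 CPM in treated cultures against 114 to 159 CPM in MYO5BΔIEC cultures, a log2 difference of 1.21 ± 0.23 (SE) that missed the edgeR threshold (adjusted p = 0.532). The median log2 difference of the 24 was 0.68, and 20 of 24 were above 0, as were 50.7% of all genes. The other 4 were Gja1 (-2.04), Tubb6 (-0.19), Ly6e (-0.17) and S100a10 (-0.15), which are named after their values were seen. Gja1 encodes the gap junction protein connexin 43.

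**Figure D5:**
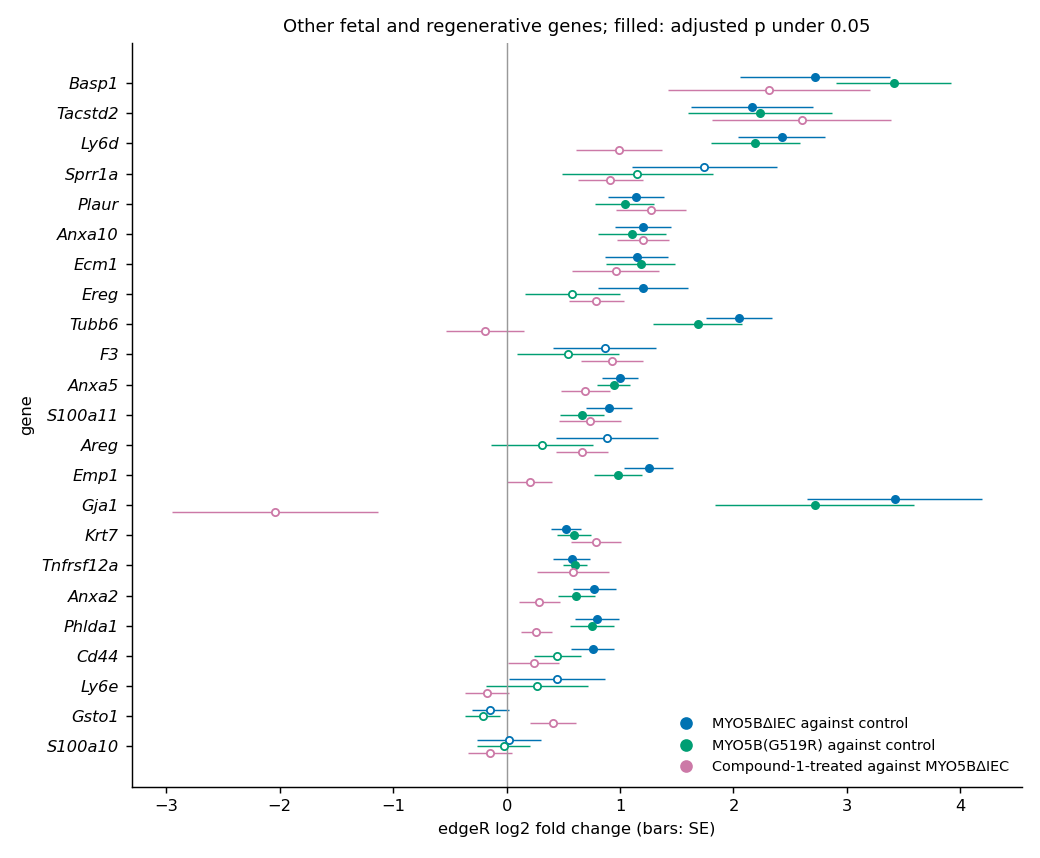
edgeR log2 fold change (x axis, bars SE) of 23 of the 24 other genes of the program that were tested (y axis) in MYO5BΔIEC and MYO5B(G519R) against control and in treated against MYO5BΔIEC enteroids. Filled points have an adjusted p under 0.05: 17 in the first comparison, 15 in the second and 0 in the third, where Gja1 lay at -2.04.

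The families of the 9 genes did not move as blocks. Over all genes tested, 13.5% rose in MYO5BΔIEC and 13.1% in MYO5B(G519R). Of the 9 other annexins, 3 rose in MYO5BΔIEC (Anxa2, Anxa5 and Anxa10), and the same 3 with Anxa11 in MYO5B(G519R), whereas Anxa4 (log2 -0.10 and -0.11) and Anxa13 (-0.50 and -0.62) did not pass. Of the 15 other S100 genes, 11 and 10 were tested, and S100a11, S100a14, S100a7a and S100b rose in both models, by log2 values of 0.90 to 2.35 in MYO5BΔIEC and 0.66 to 2.32 in MYO5B(G519R). With Compound-1, S100a7a passed by DESeq2 (log2 2.30, DESeq2 adjusted p = 0.0195) but not by edgeR (adjusted p = 0.532), nor by DESeq2 without treated culture 3 (adjusted p = 0.317). S100g, the vitamin D-dependent calcium-binding protein of absorptive cells, fell by 1.76 on the log2 scale in MYO5B(G519R) (edgeR adjusted p = 0.0049) and was at -1.19 in MYO5BΔIEC (edgeR adjusted p = 0.0851). Of the 13 other genes of the Ly6 cluster, 6 were tested, and Ly6d (2.43 and 2.19) and Lynx1 (2.04 and 1.91) rose in both models, while Ly6e (0.44 and 0.27) and Ly6c1 (1.07 and 0.76) did not pass.

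In the interleukin-1 family with its receptors, 9 of the 17 other genes were tested. Casp1, the protease that matures interleukin-1β and interleukin-18, fell in both models (log2 -0.87 and -0.97, edgeR adjusted p = 0.00904 and 0.00523), as did the co-receptor gene Il1rap (-0.70 and -0.64, edgeR adjusted p = 0.012 and 0.026). In MYO5B(G519R) Il18 also fell (-1.14) and Il1a rose (1.78), and both are named, like Anxa11 and S100g above, after their values were seen. Sigirr (0.12 and 0.07) and Il18bp (0.36 and 0.13) did not pass. Il1r1, the receptor gene on whose product the Il1rn product acts, was at 0.134 to 1.69 CPM.

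Of 12 YAP and TEAD genes, 8 rose in MYO5BΔIEC and 7 in MYO5B(G519R) and none fell, where 13.5% and 13.1% of all genes rose. In both models 7 rose, among them Ctgf (log2 2.78 and 2.47), Cyr61 (1.10 and 0.86), Tead1 (0.77 and 0.67) and Yap1 (0.47 and 0.59). Ajuba (1.19 and 1.04) and Wwtr1 (0.87 and 0.72) did not pass. With Compound-1 none of the 12 passed by edgeR, and their median log2 difference was 0.21. DESeq2 called 1 of them, Ankrd1, as higher (log2 2.94, DESeq2 adjusted p = 0.0164), the gene that lay near Clu across cultures, but not without treated culture 3 (DESeq2 adjusted p = 0.333). Of the crypt stem cell markers, Olfm4 fell in both models (-2.26 and -1.63, edgeR adjusted p = 0.00896 and 0.0174), and it was the only one of 7 to pass. Over all genes, 2483 of 17951 fell in MYO5BΔIEC and 2437 of 17829 in MYO5B(G519R), and 1 of 7 is near these shares. Of 12 interferon response genes, 2 of the 11 tested rose in MYO5BΔIEC and 1 of the 10 tested in MYO5B(G519R), and none fell. These counts are near the 13.5% and 13.1% of all genes that rose. Irf7 rose in both models (1.69 and 1.42), whereas Bst2 (-0.17 in both) and Irf1 (-0.11 and -0.14) did not pass.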

How the data were processed

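Differentiated jejunal enteroids of 4 groups of 4 cultures were analyzed, grouped by the sample labels. Per the labels, mRNA was selected with poly-T beads, and the submitters' processing notes name STAR 2.5, TopHat, HTSeq 0.6.1 and DESeq2 with GRCm38 (mm10). The authors deposited raw read counts per gene, and FPKM values made from these counts by gene length and library size. The strand setting of the counting and the handling of multi-mapping reads are not given in the sources used here. Columns of gene annotation were used for position and length.

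The raw counts entered edgeR 4.0.16 (R 4.3.3) for 2 groups at a time, with TMM scaling, the quasi-likelihood F test, Benjamini-Hochberg adjustment over all genes and a threshold of 0.05. A gene was tested where 2 or more of the libraries in the comparison held 10 or more counts. CPM used TMM sizes over the 16 libraries, and levels between genes were compared as FPKM. For likeness, log2 CPM had a prior count of 2. Alternatives were DESeq2 1.42.0, limma 3.58.1 on log2(FPKM + 1) and log2(FPKM + 0.1), other filters, scalings and fits, and each culture left out in turn. Scripts were tested on simulated counts. P-values measure the spread between cultures. Library totals were 27804968 to 40101729 counts, so that counting error matters mainly for the lowest genes. The symbols of 4 interleukin-36 genes were matched through RefSeq synonyms.

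The 9 genes and all lists were chosen with earlier results of these data known. All 9 are named. From each other list were named at most 4 of the highest mean FPKM that passed in both models in 1 direction, at most 2 of the highest that passed in neither, and any that passed with Compound-1. For marker lists the rule took the 2 of highest mean FPKM. For each of the 9, the 2 genes of highest r were named. Genes named outside this rule were chosen after their values were seen. An item withheld from this text is not reported here by name or in the plots, and it stays in the list counts.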

Additional observations from a re-analysis of the deposited data

Results flagged for a closer look

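Within the 36 groups of 4 cultures formed by the 9 genes, 4 held a culture far from the other 3, by Dixon's test at the 95% level, which chance gives in about 1 of 20 groups. Ly6a was at 119 CPM in control culture 1, against 13.2 to 17.9 CPM in the other controls, and Anxa3 was at 175 CPM in the same culture, against 39.9 to 56.8 CPM. Anxa3 was at 145 CPM in MYO5B(G519R) culture 3, against 88 to 94.3 CPM in the other MYO5B(G519R) cultures. Msln was at 85.8 CPM in control culture 2, against 31.7 to 39.4 CPM in the other controls.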

How the results depend on the processing

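Leaving out 1 culture gave 4 to 8 of the 9 genes in MYO5BΔIEC against control (8 without control culture 1), 3 to 7 in MYO5B(G519R) against control (7 without control culture 1), 7 to 9 in treated against control, and 0 in treated against MYO5BΔIEC and in MYO5B(G519R) against MYO5BΔIEC. Over all genes, the share called higher ran from 8.45% to 21.2%, 8.22% to 24.0% and 9.67% to 22.9% in the 3 comparisons with control over the same fits, and was 0% in the other pair. For the 24 other genes of the program the ranges were 13 to 22, 7 to 23, 17 to 21, 0 and 0. The count of 15 in MYO5B(G519R) became 23 without control culture 1, 8 without control culture 3 or 4 and 7 without MYO5B(G519R) culture 3. In treated against MYO5BΔIEC, DESeq2 called 2 of the 9 and 2 of the 24 where edgeR called 0, and with no filter on low counts edgeR called 1 of the 24, Anxa10. The cause was not tested. Against control, all 9 genes kept a positive log2 fold change under every alternative, in all 3 comparisons.

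Between the models, values near 0 changed sign when 1 culture was left out, and none of these passed. Over the cultures left out, Clu ran from -0.0299 (without MYO5B(G519R) culture 4) to 0.617, S100a6 from -0.0675 (without the same culture) to 0.342, Msln from -0.0741 (without MYO5B(G519R) culture 3) to 0.514, Il1rn from -0.127 to 0.493 and Anxa1 from -0.37 to 0.14. Il1rn was at -0.0952 without MYO5BΔIEC culture 3 and at -0.0884 and -0.127 without MYO5B(G519R) cultures 2 and 3. Anxa1 was at 0.00077 and 0.123 without MYO5BΔIEC cultures 2 and 3 and at 0.14 and 0.0843 without MYO5B(G519R) cultures 1 and 2.

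Cultures of different groups share numbers in the labels. The correlations of same-numbered deviations from the group means were -0.18 to 0.38, not above 0.1 for every pair in any comparison, so the numbers were not taken as pairs. With a replicate block the 9 genes gave 5, 5, 0, 9 and 0 calls and the 24 others 15, 14, 0, 20 and 0, in the order MYO5BΔIEC, MYO5B(G519R), treated against MYO5BΔIEC, treated against control, and MYO5B(G519R) against MYO5BΔIEC. The block called 20.3%, 20.7%, 0%, 24.5% and 0.00557% of all genes. It changed 2 calls among the 9, S100a6 in MYO5B(G519R) (edgeR adjusted p = 0.0294) and Ly6a in treated against control (edgeR adjusted p = 0.023). In DESeq2 fits against control, S100a6 passed in both models and Il33 in MYO5B(G519R) (DESeq2 adjusted p = 0.0325, 0.0214 and 0.0398). With control culture 1 and treated culture 3 left out together, a choice made after seeing the data, 9 of 9 passed in treated against control, where 21.9% of all genes were higher. With 4 cultures per group, small differences of Ly6a, Il33, Anxa8 and Anxa3 with Compound-1 cannot be resolved.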
